A study of Mus musculus with 2 samples.

Results

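Genes with a single annotated start were used to read where the H3K4me3 peaks of lung ILC2s lay relative to the start of transcription. They were the autosomal protein-coding genes of the GENCODE vM21 annotation that had exactly 1 transcript of any type and no transcript start of another gene within 5000 bp, and 2582 of 20807 autosomal protein-coding genes met this rule. A start peak was a peak whose nearest edge lay within 1000 bp of the start. Of the 42126 peaks of the F1PBS list and the 51610 peaks of the F1OVA list, 452 and 343 were start peaks of these genes. Where a gene had more than 1 start peak, the one with the highest −log10 q was taken as its strongest start peak, and all distances are strand-aware, with positive values downstream of the start.

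Each library was made from about 3000 ILC2s by CATCH-seq, a form of native ChIP-seq for few cells in which chromatin is cut with MNase and precipitated in the presence of carrier DNA. The cells came from the lungs of offspring 8 weeks old, within an age range of 7 to 9 weeks. F1PBS denotes offspring of control mothers, which received PBS with alum by intraperitoneal injection and PBS intranasally between days 4 and 17 of gestation. F1OVA denotes offspring of asthmatic mothers, which received 100 µg ovalbumin (OVA) with alum at each injection, given before mating. Over the same days of gestation they received repeated intranasal doses of 500 µg OVA each. Both groups of mothers thus received alum, and both were mated to untreated males. The study's methods give C57BL/6J as its wild-type strain, and the labels name neither an engineered allele nor a treatment of the offspring. The cells of each group came from the offspring of 1 dam, in a single experiment, and the number of offspring behind a library is not given in the sources used here. Each group had 1 library, so no difference between groups could be tested. The intervals below are 95% intervals over genes, exact Clopper-Pearson for shares and exact order statistics for medians, and cover counting error only. The lists hold no read counts, and the study gives its amount of sequencing as a total that is not split by library, so the depth behind each list is not known. Of 12 ILC2 marker genes, 9 had a peak within 1000 bp of a start in the F1PBS list and 6 in the F1OVA list. No peak was found in either list at the 6 markers of T cells, 5 of B cells, 6 of macrophages, 5 of neutrophils and 5 of fibroblasts, whereas 2 and 1 of 6 epithelial markers and 1 and 0 of 4 endothelial markers had one.

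Trimethylation of histone H3 on lysine 4 marks the nucleosomes around active promoters, and unmethylated CpG-rich DNA recruits the enzymes that place it. The start itself is commonly depleted of nucleosomes, and the marked nucleosomes lie on both sides of it. A gene with a single start and no close neighbour gives these nucleosomes one reference point and one direction, which a gene with several starts or a divergent neighbour does not.

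Promoter sequences of the genes described below show how much their base composition differed. Each is the 150 bases upstream of the annotated start, from the GRCm38.p6 reference sequence, read 5′ to 3′ along the strand of the gene, with CpG dinucleotides in capitals. The first 4 genes had a start peak in at least 1 list, and the last, Il13, had none in either.
Areg, chr5:91139449-91139598, plus strand: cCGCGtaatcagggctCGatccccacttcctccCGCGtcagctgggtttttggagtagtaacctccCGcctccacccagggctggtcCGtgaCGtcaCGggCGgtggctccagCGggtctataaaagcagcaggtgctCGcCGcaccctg
Klf2, chr8:72318883-72319032, plus strand: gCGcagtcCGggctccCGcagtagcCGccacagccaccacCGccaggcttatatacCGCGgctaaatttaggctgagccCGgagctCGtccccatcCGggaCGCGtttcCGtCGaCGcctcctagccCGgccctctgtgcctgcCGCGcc
Irf2bp2, chr8:126593987-126594136, minus strand: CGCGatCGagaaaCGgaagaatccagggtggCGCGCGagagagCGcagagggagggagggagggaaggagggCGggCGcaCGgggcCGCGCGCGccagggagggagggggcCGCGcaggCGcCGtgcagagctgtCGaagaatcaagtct
Gpr171, chr3:59101822-59101971, minus strand: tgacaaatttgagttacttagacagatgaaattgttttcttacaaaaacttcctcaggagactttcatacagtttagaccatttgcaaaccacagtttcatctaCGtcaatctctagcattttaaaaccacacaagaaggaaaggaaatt
Il13, chr11:53634703-53634852, minus strand: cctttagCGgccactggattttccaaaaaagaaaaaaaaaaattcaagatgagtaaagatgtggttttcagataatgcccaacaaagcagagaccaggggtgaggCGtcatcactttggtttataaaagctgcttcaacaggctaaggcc
The window held 13 CpGs at Areg, 18 at Klf2 and 20 at Irf2bp2, but 1 at Gpr171 and 2 at Il13. A start peak was therefore found at CpG-rich and at CpG-poor promoters, and both kinds are described below.

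The sequences under 3 summits are shown because the summit lay far from the start or the peak stood far above others in its list. Each holds the F1PBS summit with 50 bases on either side, which overlapped no annotated exon, with CpGs again in capitals.
Ccr3, chr9:124020818-124020918, plus strand: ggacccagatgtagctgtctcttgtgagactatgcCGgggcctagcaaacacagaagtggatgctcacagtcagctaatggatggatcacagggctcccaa
Gm3532, chr14:5537473-5537573, plus strand: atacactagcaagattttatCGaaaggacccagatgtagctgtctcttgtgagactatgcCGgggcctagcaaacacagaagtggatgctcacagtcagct
Tas2r134, chr2:51626686-51626786, plus strand: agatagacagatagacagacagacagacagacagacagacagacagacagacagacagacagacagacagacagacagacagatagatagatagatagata
The Ccr3 and Gm3532 windows, on different chromosomes, shared an identical run of 76 bases. The Tas2r134 window is an array of short tandem repeats. All 3 lay upstream of their start.

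A start peak was less frequent at single-start genes than at protein-coding genes at large. In the F1PBS list 392 of 2582 single-start genes (15.2%, 13.8 to 16.6) had one, against 48.5% of all autosomal protein-coding genes. In the F1OVA list 286 had one (11.1%, 9.89 to 12.4), against 40.0%. Both lists had a start peak at 275 genes (10.7%, against 39.5%), the F1PBS list alone at 117 (4.53%, against 9.04%) and the F1OVA list alone at 11 (0.426%, against 0.514%), and 2179 genes had none. Start peaks in 1 list only were thus mostly in F1PBS, 117 against 11 genes, and so they were among all autosomal protein-coding genes, with 1881 against 107. The shares above are of all genes, with or without a peak. Of the single-start genes with an F1PBS start peak, 275 of 392 (70.2%) had one in F1OVA too. Among all autosomal protein-coding genes it was 8217 of 10098, a higher share.

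Several families of tissue-restricted receptors and structural proteins rarely had a start peak. Families were read from the gene symbols, so they can hold genes that share a prefix only and miss members named otherwise. Of 108 olfactory receptor genes 2 had a start peak in the F1PBS list and 3 in the F1OVA list (1.85% and 2.78%, against 0.709% and 0.887% of all autosomal genes of the family). Of 94 vomeronasal receptor genes 0 and 1 had one (against 0.306% and 0.612% of the family), and none of 32 keratin-associated protein genes or 27 beta-defensin genes had one in either list (against 0% and 1.75%, and 0% and 0%, of the families). Start peaks were thus rare in these families with or without the single-start rule. These genes serve smell, pheromone sensing, hair structure and epithelial defence. The summits of the olfactory receptor genes with a peak all lay upstream of the start, between -707 and -330 bp. Of 32 zinc finger genes 17 and 12 had a start peak (53.1% and 37.5%, against 75.7% and 60.1% of all autosomal genes of the family), and all of their summits lay downstream, with medians of 147 and 122 bp. Genes with a predicted, RIKEN or clone-type name formed the largest group, 558 genes, of which 28 and 26 had a start peak (5.02% and 4.66%, against 24.4% and 20.1% of the autosomal genes with such names).

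CpG content separated the genes with a start peak from those without. A start was called CpG-rich where the 500 bp around it had a GC content of at least 50% and a ratio of observed to expected CpGs of at least 0.6. Of 554 such genes 306 had a start peak in the F1PBS list (55.2%, 51.0 to 59.4) and 222 in the F1OVA list (40.1%, 36.0 to 44.3). Of the other 2028 genes 86 (4.24%, 3.41 to 5.21) and 64 (3.16%, 2.44 to 4.01) had one. The intervals of the 2 classes were far apart in both lists. In the 150 bases upstream, the median number of CpGs was 11 at the 403 genes with a start peak in either list, 1 at the 2179 genes without one and 6 at all autosomal protein-coding genes.

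Short promoter motifs were then counted. Each was searched on both strands of the 150 bases, and matches of different motifs could overlap. The GC box core GGGCGG, bound by Sp1-type factors, was present at 53.3% (48.3 to 58.3) of the genes with a start peak, at 14.1% (12.7 to 15.6) of those without and at 35.6% of all autosomal protein-coding genes. The letters CCGGAAG, the core bound by ETS factors, were present at 9.43% (6.76 to 12.7), 1.42% (0.969 to 2.01) and 6.77%. The TATA box letters TATAAA showed the opposite order, with 4.71% (2.86 to 7.26), 17.8% (16.2 to 19.4) and 7.28%. The CCAAT box, which recruits NF-Y, was present at 32.0% (27.5 to 36.8), 27.3% (25.4 to 29.2) and 26.8%, and the intervals of genes with and without a start peak overlapped for this motif alone. A match is a description of the letters and not of a bound site, and the groups compared also differ in CpG content, whose part in these shares was not tested. Il13 and Klrg1, both without a start peak, held TATAAA, and so did Areg, which had one in both lists.

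Where a start peak was present, its summit lay downstream of the start at most genes. The median summit distance was 202.5 bp in the F1PBS list (182 to 217, 392 genes), with quartiles of 119 and 341 bp. In the F1OVA list it was 232 bp (216 to 268, 286 genes), with quartiles of 122 and 382.5 bp. The summit was at or downstream of the start at 346 of 392 genes (88.3%, 84.7 to 91.3) and at 254 of 286 (88.8%, 84.6 to 92.2). The 2 intervals of the median overlapped narrowly, between 216 and 217 bp, and those of the share almost fully. The most frequent distance was 100 to 199 bp in the F1PBS list, with 108 genes, and 200 to 299 bp in the F1OVA list, with 62 genes. The first 100 bp downstream held fewer summits, 37 and 26. A summit beyond 1000 bp could arise only where the peak itself reached into the window, and this was seen upstream at 1 and 4 genes and downstream at 9 and 6 genes of F1PBS and F1OVA.

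**Figure D1:**
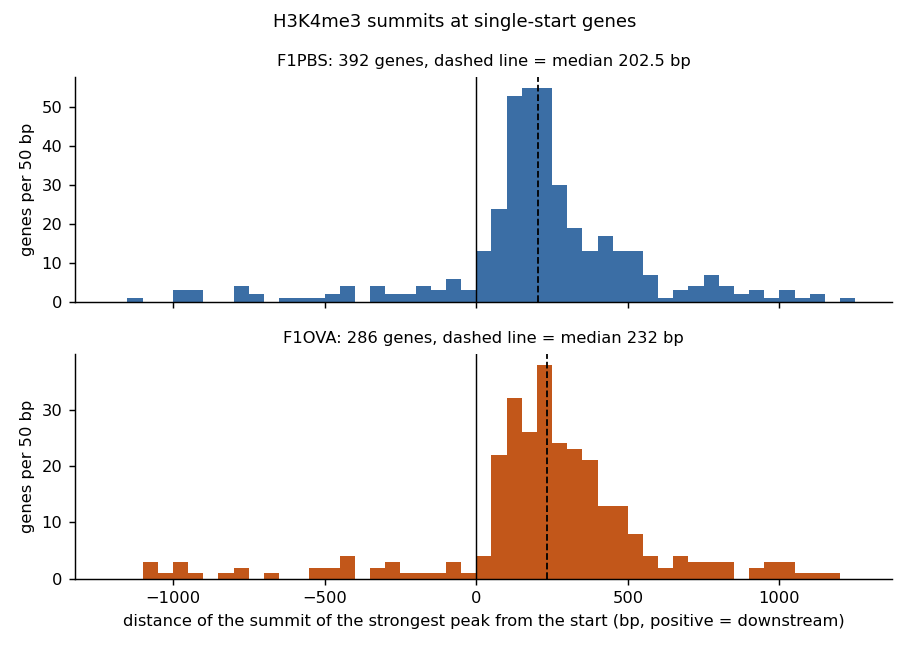
Number of single-start genes (y axis, genes per 50 bp) by distance of the summit of the strongest start peak from the start (x axis, bp, positive downstream), for F1PBS above and F1OVA below. The solid line is the start and the dashed line the median, 202.5 bp and 232 bp; 2 F1PBS genes lie beyond the axis, and in both lists the tall bars stand downstream of the start.

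The peak as a whole was placed to the same side. In the F1PBS list the strongest start peak began at a median of -3 bp (-19 to 14), in effect at the start, and ended at 505 bp (484 to 553). In the F1OVA list it began 53.5 bp downstream (37 to 74) and ended at 437 bp (388 to 477). The median width was 521.5 bp (471 to 546) and 336.5 bp (318 to 365), so the F1OVA peaks were shorter at both ends. Peaks were wholly downstream of the start at 193 genes (49.2%) in F1PBS and at 210 genes (73.4%, 67.9 to 78.5) in F1OVA. They covered the start at 169 (43.1%) and 50 genes (17.5%) and were wholly upstream at 30 (7.65%) and 26 (9.09%). Where a peak covered the start, a median of 85.8% (82.4 to 88.0) and 90.9% (84.5 to 93.7) of its width lay downstream.

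**Figure D2:**
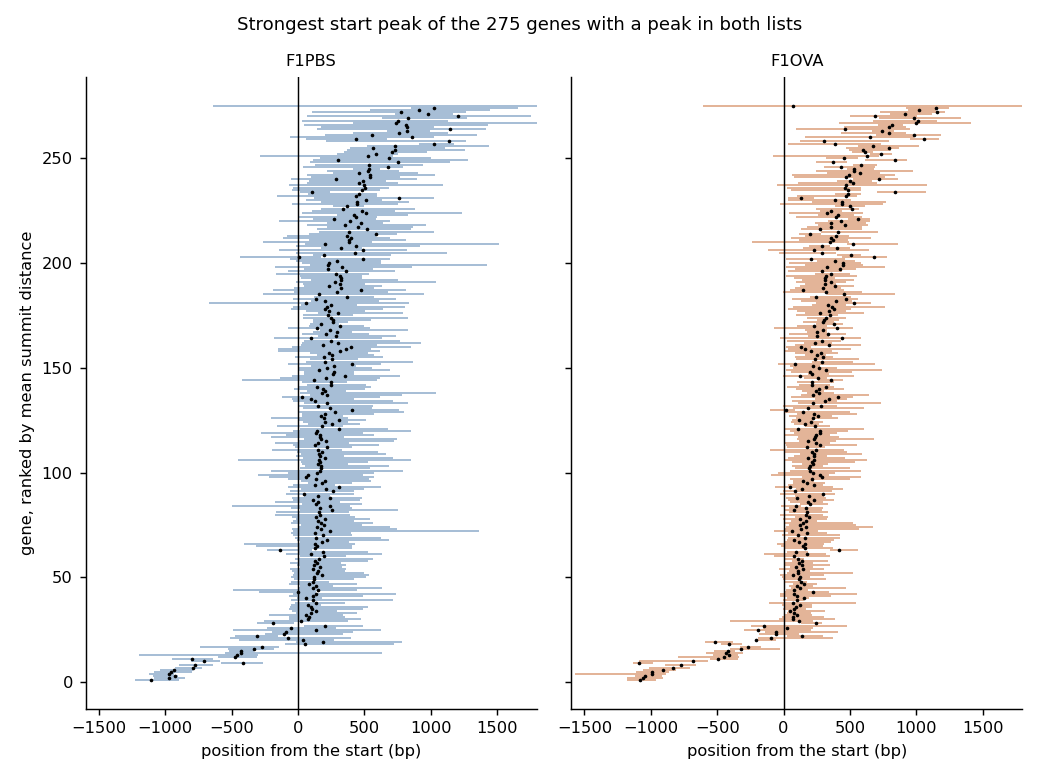
Strongest start peak of each of the 275 single-start genes with a start peak in both lists, F1PBS on the left and F1OVA on the right. Each row is a gene, in the same order in both panels by mean summit distance; the bar spans the peak, the dot is the summit, the x axis is the position from the start in bp, and 2 F1PBS bars and 1 F1OVA bar run past the axis. Most bars start near the vertical line in F1PBS and to the right of it in F1OVA.

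Relative to the gene model, most summits lay in the first exon or the first intron. In F1PBS, 216 summits (55.1%) fell in exon 1, 121 (30.9%) in intron 1, 9 in a later exon and 46 upstream. In F1OVA, 156 (54.5%) fell in exon 1, 90 (31.5%) in intron 1, 6 in a later exon, 2 in a later intron and 32 upstream. The summit thus sat on either side of the first splice donor, a median of -66.5 bp (-93 to -44) from the end of exon 1 in the 324 F1PBS genes with 2 or more exons and -35.5 bp (-83 to -8) in the 232 F1OVA genes. Genes without introns, among which first exon and gene are the same, had their summits at similar distances, 243.5 bp (179 to 333, 68 genes) and 237 bp (158 to 320, 54 genes), against 197 bp (176 to 211) and 231.5 bp (214 to 271) for genes with 2 or more exons.

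Genes with longer first exons had peaks that ran further into the gene. With first exons of at most 185 bp, peaks ended at a median of 441 bp (383 to 492) in F1PBS and 361.5 bp (315 to 430) in F1OVA. With first exons over 357 bp they ended at 623 bp (505 to 693) and 538.5 bp (439 to 599), and the intervals of short and long first exons did not overlap in either list. The summit moved less, from 168 bp (147 to 202) to 215 bp (174 to 276) in F1PBS and from 202 bp (147 to 246) to 293 bp (226 to 354) in F1OVA, and these intervals overlapped. Across genes, first exon length and downstream extent had a Spearman rho of 0.21 (324 genes) and 0.27 (232 genes). These are descriptions across genes of 1 library, and genes are not replicates.

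Weak and strong peaks had a similar median distance but not a similar spread. The genes of each list were put into 4 parts of equal or nearly equal size by the −log10 q of the strongest start peak. In F1PBS, the 98 genes with the lowest (2.98 to 8.49) had a median summit distance of 160.5 bp (103 to 238) and an interquartile range of 398 bp. The 98 with the highest (17.1 to 127) had 201.5 bp (169 to 221) and 174 bp. Upstream summits accordingly numbered 26 among the weakest and 1 among the strongest. In F1OVA the median went from 239.5 bp (213 to 314) to 235 bp (187 to 293), the interquartile range from 297 to 207 bp and the upstream summits from 10 to 5 of 72. CpG-rich starts had the summit downstream at 90.2% of genes (86.3 to 93.3) in F1PBS and the other starts at 81.4% (71.6 to 89.0), with overlapping intervals. In F1OVA the shares were 93.2% (89.1 to 96.2) and 73.4% (60.9 to 83.7), and the intervals did not overlap. Of the 32 upstream F1OVA summits, 15 were in peaks with at least 50% of bases repeat-masked in the reference sequence. CpG-rich and other starts were not compared without such peaks.

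Among genes with a peak in both lists, 3 of the 5 summits farthest downstream, by the mean of both lists, lay in long first exons. Irf2bp2, a transcriptional corepressor that binds IRF2, had its summit at 914 bp in F1PBS and 1018 bp in F1OVA, within a first exon of 1547 bp. Ccdc71l, a coiled-coil gene with 1 exon of 4240 bp, had summits at 777 and 1153 bp. Gadd45gip1, a mitochondrial ribosome component, had summits at 983 and 914 bp in a first exon of 1119 bp. All of these summits lay within exon 1. At 2310034G01Rik, with summits at 1027 and 1149 bp in a later exon, the only start in the RefSeq promoter table lay 1314 bp downstream of the GENCODE start. Gm21738 had summits at 3059 and 74 bp within a single wide peak and is described with the repeats.

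By the mean of both lists, the 5 summits farthest upstream lay in repeats. Ccr3, the eotaxin receptor, had its summit at -1104 bp in F1PBS and -1080 bp in F1OVA. The predicted genes Gm3532, Gm3755 and Gm16440 had summits at -973, -925 and -957 bp in F1PBS and at -1060, -1043 and -990 bp in F1OVA. Scgb1b30, a secretoglobin, had summits at -970 and -990 bp. At all 5 genes 100% of the bases of both peaks were repeat-masked in the reference sequence, and the windows of Ccr3 and Gm3532 printed above share 76 bases, whereas their windows at the F1OVA summits share 8. The windows of the other 3 genes were not compared. Short reads from repeated sequence can match several places, and how such reads were placed was not examined. In the F1OVA list alone the summit farthest upstream was that of Rap2a, a small GTPase, at -1091 bp, in a peak with no repeat-masked bases. The strongest of its peaks in F1PBS had its summit at -414 bp.

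Among all genes with a start peak, repeat-masked peaks were most frequent where the summit lay far upstream. Of the F1PBS summits over 500 bp upstream, 10 of 16 (62.5%, 35.4 to 84.8) belonged to peaks at least 50% repeat-masked. Of those 0 to 500 bp downstream, 3 of 292 (1.03%, 0.212 to 2.97) did. In F1OVA the numbers were 12 of 14 (85.7%, 57.2 to 98.2) and 4 of 216 (1.85%, 0.507 to 4.67). For summits over 500 bp downstream the numbers were 3 of 54 in F1PBS and 3 of 38 in F1OVA. For all upstream summits they were 11 of 46 and 15 of 32, so most such peaks had summits over 500 bp upstream. The group over 500 bp upstream was also poor in CpG-rich starts, 3 of 16 and 2 of 14. The near downstream group had 240 of 292 and 182 of 216. Without the peaks that were at least 50% repeat-masked, the share of F1OVA summits downstream was 93.6% (89.9 to 96.2, 264 genes).

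**Figure D3:**
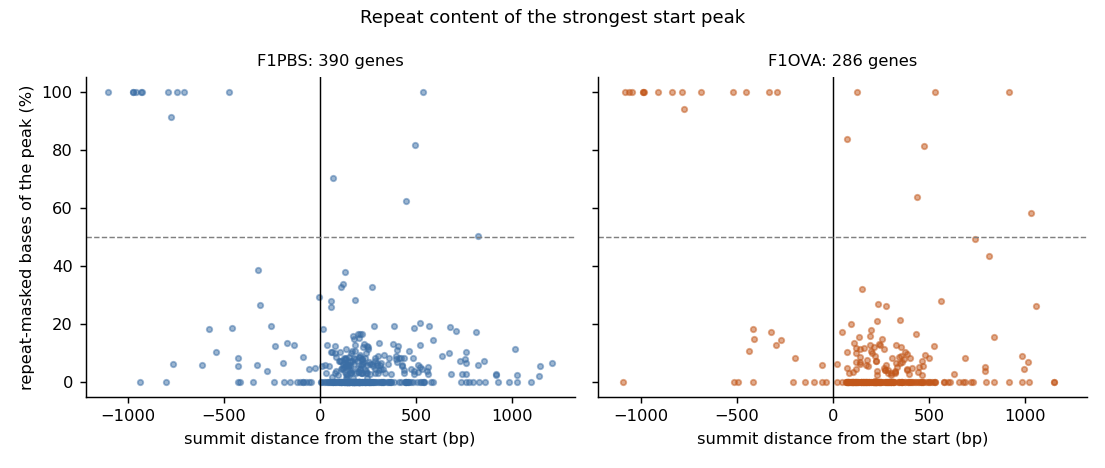
Share of repeat-masked bases in the strongest start peak (y axis, %) against the distance of its summit from the start (x axis, bp) for each single-start gene, F1PBS on the left and F1OVA on the right. The dashed line marks 50%; most points over it lie to the left of the start, and 2 F1PBS genes lie beyond the axis.

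The 3 peaks with the highest −log10 q were also in repeats, but downstream of the start. Gm10800 on chromosome 2 had a −log10 q of 127 in F1PBS and 107 in F1OVA, with summits at 495 and 472 bp and 81.6% and 81.2% of the peak repeat-masked. Its neighbour Gm10801 had 114 and 99.3, with summits at 449 and 439 bp and 62.4% and 63.8% repeat-masked. Gm21738 on chromosome 14 had 74.5 and 67.6 and the widest peaks, 3872 and 3831 bp, 83.4% and 83.6% repeat-masked. The fold was 4.84 and 4.95 at Gm10800 and 3.26 and 3.56 at Gm21738. Gm32687, a predicted gene with a CpG-rich start and no repeats, had a fold of 14.5 and 14.1 at a −log10 q of 50.7 and 39.7. The Gm32687 summits lay at 112 and 104 bp. Zfp955a, a zinc finger gene and the strongest in F1PBS after these, had a −log10 q of 36.3 in F1PBS and 14.6 in F1OVA, with summits at 147 and 106 bp and no repeats in either peak. Tas2r134, a bitter taste receptor, was among the 5 strongest in F1OVA, with a −log10 q of 48.9 there and 14.7 in F1PBS and with its summit at -775 bp in both lists in the tandem repeat printed above.

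Summits nearest the start in both lists belonged to genes of varied function. Rasd1, a dexamethasone-induced Ras-like GTPase, had its summit at -55 bp in F1PBS and 23 bp in F1OVA. Ficd, which adds AMP to the endoplasmic reticulum chaperone BiP, had summits at 79 and 74 bp. Pomk, a kinase of O-mannose glycans, had summits at 85 and 74 bp, Nxpe3 at -89 and -54 bp, and Rpp25l, a protein related to an RNase P subunit, at -73 and -97 bp. At all 5 genes, which were chosen for summits close to the start, the peak covered the start in both lists. Over all single-start genes with a peak, 43.1% of the F1PBS peaks and 17.5% of the F1OVA peaks did.

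The 275 genes with a start peak in both lists showed how far a summit moved from one library to the other. The median difference, F1OVA minus F1PBS, was 9 bp (-5 to 24), with quartiles of -59.5 and 82 bp. The F1OVA summit was the more upstream of the pair at 124 genes, the more downstream at 149 and at the same base at 2. The median absolute shift was 73 bp (61 to 85), and 170 genes (61.8%) had both summits within 100 bp and 262 (95.3%) within 500 bp of each other. Both summits were downstream at 246 genes and both upstream at 20, while 5 went from downstream in F1PBS to upstream in F1OVA and 4 the other way. The interval of the median difference included 0, and the strongest start peaks of the lists overlapped by at least 1 bp at 263 of the 275 genes (95.6%, 92.5 to 97.7). The overlap covered at least 50% of both peaks at 60.4% (54.3 to 66.2) of them.

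**Figure D4:**
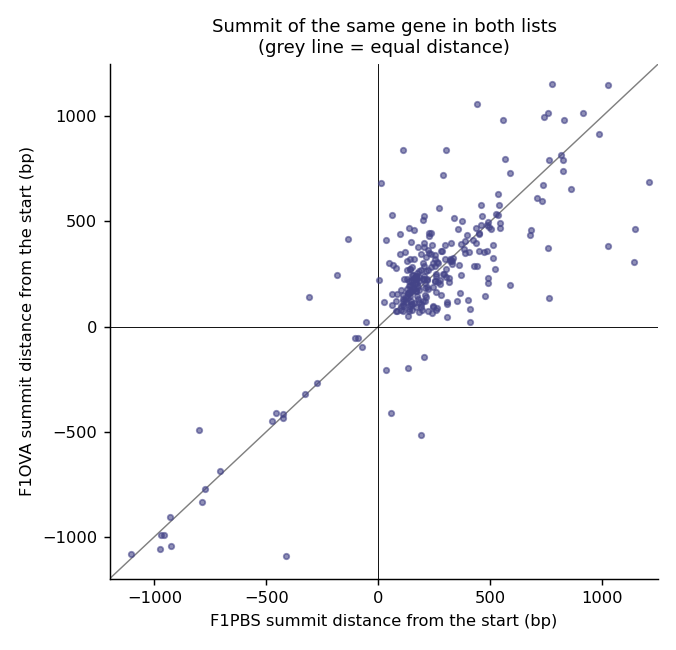
Summit distance from the start in F1OVA (y axis, bp) against F1PBS (x axis, bp) for single-start genes with a start peak in both lists; each point is a gene, the grey line marks equal distances, and Gm21738 lies beyond the axis. Most points sit near the line in the upper right quadrant, where both summits are downstream.

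Edges differed more to one side than summits did in the same genes. The upstream edge lay a median of 62 bp (54 to 72) further downstream in F1OVA, and 229 of 275 genes (83.3%) reached less far upstream there. The downstream edge lay a median of 99 bp (74 to 124) nearer the start in F1OVA, and 223 genes (81.1%) reached less far downstream. Regardless of direction, the median difference was 71 bp (62 to 90) at the upstream edge and 120 bp (97 to 151) at the downstream edge, where the summits had 73 bp, so that of the upstream edge was about as large as that of the summit. Peaks of the F1OVA list were also narrower over the whole genome, with a median of 249 against 315 bp. At these genes the median −log10 q was 7.60 in F1OVA and 14.6 in F1PBS, on scales that are each list's own. The part of peak strength in the difference of the edges was not tested.

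Of the 13 shifts over 500 bp, the 5 largest were at Gm21738, Lonrf1, Zbtb10, Med26 and Ier5. At Ier5, an immediate early gene with 1 exon, the F1PBS summit lay at 1144 bp and the F1OVA summit at 464 bp, within overlapping peaks of 1280 and 863 bp. At Lonrf1, a RING finger gene, the summits lay at 1142 and 305 bp, again in overlapping wide peaks. Zbtb10, a zinc finger transcription factor gene, had 3 start peaks in each list, with summits at -233, 109 and 793 bp in F1PBS and at -322, 111 and 841 bp in F1OVA. The middle peak was strongest in F1PBS and the last in F1OVA. Med26, a Mediator subunit gene, had peaks on both sides of the start, with summits at -492 and 189 bp in F1PBS and at -516 and 150 bp in F1OVA, and −log10 q of 13.5 and 16.2 in F1PBS and of 10.7 and 10.6 in F1OVA. At both genes each summit of one list had a counterpart within 100 bp in the other, and the peak with the highest q was not the same. The edges differed more, as at the downstream peak of Med26, which ran from -15 to 787 bp in F1PBS and from 57 to 536 bp in F1OVA. At Tmem121b, named after its values were seen, the summits differed by -642 bp between peaks that did not overlap, with 1 start peak in each list. In all, 53 F1PBS and 50 F1OVA genes had more than 1 start peak, and at 24 and 12 of them the peaks stood on both sides of a start that none of them covered.

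Genes with a start peak in the F1PBS list only had weaker and narrower peaks than the genes shared by both lists. Over the 117 genes the median −log10 q was 7.12 (7.06 to 8.79) and the median width 322 bp (292 to 363), against 14.6 (13.0 to 15.4) and 599 bp (560 to 643) in F1PBS at the 275 shared genes. Their median summit distance was 182 bp (132 to 210), and 22 of the 117 summits lay upstream (18.8%, 12.2 to 27.1), against 24 of 275 (8.73%, 5.67 to 12.7) at the shared genes. The 5 with the highest −log10 q, between 17.1 and 20.0, were Pcnx4, Tmem218, Mgst3, Borcs7 and Manbal. All 5 starts were CpG-rich. Their summits lay at 109, 232, -428, 132 and 205 bp. Mgst3, a microsomal glutathione transferase, was the one with its summit upstream, and Borcs7 is a subunit of the complex that positions lysosomes.

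The F1OVA list alone had a start peak at 11 genes. Their median summit distance was -293 bp (-784 to 914), and 7 of the 11 summits lay upstream (63.6%, 30.8 to 89.1). The highest −log10 q were 13.6 at Myf6, a muscle transcription factor, 10.4 at Ces2h, a carboxylesterase, 7.96 at Gm11554, 6.86 at Peg12, an imprinted gene, and 6.28 at Gm17631. Their summits lay at 1032, 914, -784, 276 and 124 bp. The peaks of Ces2h, Gm11554 and Gm17631 were 100% repeat-masked and that of Myf6 58.4%, whereas that of Peg12 was 5.90% and its start CpG-rich.

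Of 151 genes in a list of ILC2 and other immune genes, 16 were single-start genes. In the F1PBS list 8 of the 16 had a start peak and in the F1OVA list 4, against 68.2% and 38.5% of the 148 genes of that list on autosomes. The summits of their strongest start peaks all lay downstream. Areg, the growth factor amphiregulin of ILC2s, had its summit at 80 bp in F1OVA, a difference of -21 bp from F1PBS, and a −log10 q of 12.7 in F1PBS and 5.17 in F1OVA. The peak ran from -13 to 449 bp in F1PBS and from 25 to 206 bp in F1OVA. Btg2, an antiproliferative immediate early gene, had summits at 300 and 838 bp, where F1PBS had 1 peak of 1165 bp and F1OVA 2 peaks, with summits at 199 and 838 bp. Gpr171, a G protein-coupled receptor gene, had summits at 149 and 193 bp with a −log10 q of 7.24 and 6.00, in spite of a promoter with a single CpG. With Ier5 these were the 4 immune genes with a start peak in both lists.

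The immune genes with a start peak in F1PBS alone were transcription factors and receptors. Nfil3, a transcription factor needed for innate lymphoid cells, had a summit at 218 bp with a −log10 q of 16.4, and a second, weaker peak at -269 bp. The nearest F1OVA peak began 2375 bp downstream of its start. Klf2, a factor of lymphocyte quiescence, had a summit at 179 bp with a −log10 q of 8.98. Pdcd1, which encodes PD-1, had a summit at 84 bp with 10.9, and Gpr65, a proton-sensing receptor, had its strongest summit at 925 bp with 7.12. The nearest F1OVA peaks to these 3 starts were -88379, -16307 and -9313 bp away.

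The other 8 immune genes had no start peak in either list. They were the cytokine genes Il13 and Il9, the ILC2 surface markers Klrg1 and Ptgdr2, and Dusp4, Tnfsf8, Tigit and Cd79a. At Il13 the nearest peak edge lay 18025 bp downstream of the start in F1PBS and -55641 bp from it in F1OVA. At Klrg1 it lay at -14622 and -14693 bp, and at Ptgdr2, the receptor for prostaglandin D2, at 11363 and 11529 bp. Dusp4, a MAP kinase phosphatase gene, was the single one of the 8 with a CpG-rich start, with 15 CpGs in the 150 bases upstream. A called peak depends on the caller's threshold and on depth, so a missing peak does not show that the mark was absent.

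Position and extent at single-start genes were then set beside other autosomal protein-coding genes. Genes with several transcripts but no other gene's start within 5000 bp, 9970 in all, had a median summit distance of 232 bp (227 to 238) from their 5′ end in F1PBS and 247 bp (239 to 254) in F1OVA. The F1PBS interval lay above that of single-start genes, and the F1OVA intervals overlapped. Over single-start genes with a start peak in both lists, the F1PBS median was 207 bp (190 to 233), whose interval overlaps 227 to 238. The median at genes with several transcripts was not recomputed under this restriction. Summits were downstream at 93.9% (93.2 to 94.6) and 93.9% (93.1 to 94.7) of the genes with several transcripts, above the intervals of single-start genes in both lists. This separation was narrow. With peaks under 50% repeat-masked in both classes, the shares in F1PBS were 94.2% (93.5 to 94.8) and, at single-start genes, 90.7% (87.3 to 93.4), and in F1OVA 94.8% (94.0 to 95.5) and 93.6% (89.9 to 96.2), where the intervals overlapped. Over genes with a start peak in both lists they were 94.7% (94.0 to 95.4) and 91.3% (87.3 to 94.3) in F1PBS and 94.4% (93.6 to 95.1) and 90.9% (86.9 to 94.0) in F1OVA, and the intervals overlapped in both lists. A start peak was present at 45.9% and 37.4% of them. Genes with 1 transcript that had a neighbouring start within 5000 bp, but none on the opposite strand upstream, had medians of 195 bp (164 to 243) and 219 bp (157 to 262), with intervals that overlapped those of single-start genes.

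A divergent neighbour went with a different picture. Of 355 genes with 1 transcript and an opposite-strand start upstream within 1000 bp, 250 had a start peak in F1PBS (70.4%) and 207 in F1OVA (58.3%). Their summit was downstream at 57.6% (51.2 to 63.8) and 55.6% (48.5 to 62.4), and the median distance was 133.5 bp (69 to 150) and 79 bp (-119 to 140). The intervals of the share and of the median lay below those of single-start genes in both lists. At 35.2% and 42.0% the strongest peak lay wholly upstream, on the side of the neighbour, against 7.65% and 9.09% at single-start genes. More than 1 start peak was found at 48.4% and 37.2% of them, against 13.5% and 17.5%. By the definition of this class the neighbour's start lay within the 1000 bp window. A peak of the neighbour could thus be counted as a start peak of the gene, and even as its strongest. More upstream summits and more genes with several peaks can therefore follow from the rule. To which start each peak belonged was not determined. These are comparisons of gene classes within a library by their intervals, and no test was made.

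**Figure D5:**
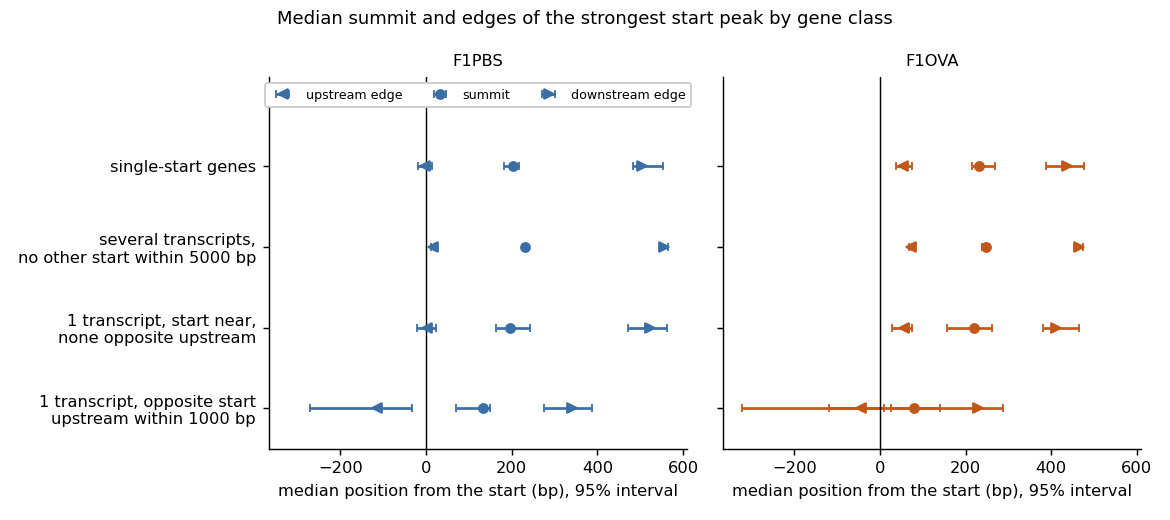
Median position from the start (x axis, bp) of the upstream edge, the summit and the downstream edge of the strongest start peak in 4 classes of genes (y axis), F1PBS on the left and F1OVA on the right, with 95% intervals of the median over genes. The 3 symbols stand to the right of or at the start in all classes but the last, whose upstream edge lies to its left.

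The annotated start itself was checked against RefSeq. A single RefSeq start was found for 282 of the 392 F1PBS genes and 210 of the 286 F1OVA genes. It lay within 10 bp of the GENCODE start at 149 and 109 of them, and within 100 bp at 257 and 191. Measured from the RefSeq start, the median summit distance was 191.5 bp (175 to 208) and 222.5 bp (186 to 248), and 87.2% and 86.7% of summits were downstream. Of the 45 F1PBS summits over 500 bp from the GENCODE start, 7 were at genes whose RefSeq start lay over 100 bp from it, and 6 of the 45 lay within 500 bp of the RefSeq start. Of 40 such F1OVA summits, 4 and 5 did. Most distant summits were thus distant from both annotated starts.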

How the data were processed

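CATCH-seq libraries of H3K4me3 from lung ILC2s, 1 per group, were analysed from the peak lists that the authors deposited. After read trimming, the authors used Bowtie2 for alignment (GRCm38) and discarded duplicates; part of the lysate was kept for an input library. The study's reporting form states that peaks were not called on these data and names a caller for ATAC-seq alone, so the caller behind the deposited lists, and whether it used the input, are not given in the sources used here. The deposited lists give a score that equals the −log10 q multiplied by 10 and cut to a whole number in nearly all rows. They also give the fold, a ratio of signal to background set by the authors' peak caller, and the −log10 p and −log10 q of each peak, also from the authors' caller. These values are not scaled between libraries. Where they are printed for both lists, each describes its own list, and no difference in the mark between groups is read from them. Read counts are not in the lists, so depth could not enter any interval.

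Starts and exons came from GENCODE vM21. Every transcript start of another gene, of any type, counted as another start. Distances were computed from the summit (peak start plus summit offset) with Python 3.11.15, numpy 2.4.6, pandas 2.3.3 and scipy 1.17.1, and figures with matplotlib 3.10.9. The other gene classes were processed in the same way. Extents, summits and intervals were tested on simulated data. Sequences, CpG content and repeat-masked (lower case) bases came from the GRCm38.p6 reference sequence, and the alternative starts from a RefSeq promoter table of the same build, matched by symbol for 1755 of 2582 genes.

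Genes named are the 5 with the highest −log10 q per list; among genes with a peak in both lists, the 5 farthest downstream, the 5 farthest upstream, the 5 nearest the start and the 5 with the largest shift; the 5 with the highest −log10 q among genes in 1 list only; and the immune genes. Promoter sequences of immune genes were added to the planned ones after their values were seen. The genes, lists and measures were chosen with earlier results of these data known. With 1 library per group no test between groups was made. Alternatives were other windows, a −log10 q of at least 5, other rules for the strongest peak, for neighbours and for repeats, and, chosen after seeing the data, RefSeq starts genes with 1 overlapping peak in both lists, and the repeat and both-list restrictions at genes with several transcripts.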

Additional observations from a re-analysis of the deposited data

How the results depend on the processing

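Of the values recomputed under the alternatives, 120 stayed within the 95% interval of the value reported and 10 did not, and no median whose interval excluded 0 changed sign. The median summit distance ranged from 191.5 to 207 bp in F1PBS and from 219.5 to 242 bp in F1OVA, and the summit shift from 4 to 21 bp. With starts read within 2000 bp, 13.0% of genes had an F1OVA start peak, and 81.25% of F1OVA summits were downstream. The peaks of both lists overlapped at 99.5% of the 203 genes with 1 start peak in each, and at 60.4% of all 275 genes when the overlap had to cover at least 50% of both peaks. Over genes with a peak in both lists the F1PBS downstream extent was 577 bp. With peaks under 50% repeat-masked, 93.6% of F1OVA summits were downstream. With the outermost edges of all start peaks, the F1PBS upstream extent was 20 bp and the F1OVA downstream extent 482 bp. At genes with several transcripts 94.7% of F1PBS summits over genes with a peak in both lists, and 94.8% of F1OVA summits of peaks under 50% repeat-masked, were downstream. The RefSeq start, the restriction to 1 overlapping peak and the restrictions at genes with several transcripts were chosen after seeing the data. Beyond what each alternative does by its own construction, the cause of these moves was not tested. No paired analysis was possible because each group consisted of a single library. Library, litter and treatment of the mother cannot be told apart.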
